A study of Mus musculus with 6 samples.

Results

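Accessible chromatin was examined over the Nat8 gene cluster on mouse chromosome 6 in muscle stem cells (MuSCs) with and without TAF4A, a subunit of the general transcription factor TFIID. The region was defined as all ATAC-seq peaks of the processed table that lie between 85.6 and 86.1 Mb on chromosome 6 (mm10, GRCm38). It held 16 of the 75412 peaks. These peaks had been chosen by their values in the same comparison of Taf4a sKO with control libraries, so the differences between the genotypes inside the window are given as a description, and calls of window peaks in the fit over all peaks are counted without being used as evidence.

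The 6 libraries came from freshly isolated MuSCs of adult C57BL/6 mice, 3 of genotype control, with WT in their titles, and 3 of genotype Taf4a sKO, with ko-Taf4a in theirs. Taf4a sKO animals carried the Pax7CreERT driver, which acts in cells that express Pax7, together with Taf4a flox/flox alleles whose exons 11 and 12 are removed after tamoxifen. Control animals were littermates with floxed Taf4a, listed with or without Cre, and which of these entered each control library is not given in the sources used here. The study lists tamoxifen beside the Taf4a sKO genotype, and whether these controls received it is not given in the sources used here. If they did not, tamoxifen and genotype cannot be told apart. Mice of 8 to 20 weeks and both sexes were used, and the interval between tamoxifen and isolation for these libraries is likewise not given in the sources used here. MuSCs were sorted as SCA1-, CD45- and CD31- cells that were Integrin-a7+ or expressed a Pax7-zsGreen reporter, and 50000 cells entered each transposition with Tn5, an enzyme that cuts open chromatin and attaches sequencing adapters. The deposited values are reads per peak normalized for sequencing depth by the authors and rounded, called normalized counts here. They summed to 37722015, 35226223 and 42803315 in control libraries 1, 2 and 3 and to 44311913, 41661725 and 41948821 in Taf4a sKO libraries 1, 2 and 3.

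NAT8 is a membrane enzyme of the endoplasmic reticulum that transfers an acetyl group from acetyl-CoA to cysteine conjugates, the last step in making mercapturates from glutathione conjugates. It is best known from kidney and liver. In the mouse the gene lies in a row of related camello-like genes, Nat8 and Nat8f1 to Nat8f7, interleaved with partial copies of Alms1, which encodes a protein of the centrosome and the base of cilia. Such families arise by local duplication, and short reads from the copies can be hard to place.

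Of the 16 peaks, 9 were annotated to a Nat8 family gene. Nat8 had 2 peaks, Nat8f2 had 2, Nat8f4 had 3, and Nat8f1 and Nat8f3 had 1 each. The Nat8f1 peak carries the older symbol Cml1 in the table and was matched by its Ensembl identifier, ENSMUSG00000057103. By the symbols printed in the table alone the count was 8. No peak was annotated to Nat8f5, Nat8f6 or Nat8f7. The other 7 peaks comprised 1 each for Ptges3-ps, Gm7542, Dusp11 and the lincRNA 4930553P18Rik, and 3 to which the table gives no gene. Of these 3, the peak in Alms1 lay 5792 bases from the GENCODE start of Nat8f7, the peak in Alms1-ps2 6503 bases from that of Nat8f6, and the remaining one 12511 bases from that of Nat8f2.

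The sequence of the window was read from GRCm38 because it shows how similar these regions are. When each peak was aligned to the whole genome, 12 of the 16 had at least 1 further copy that covered 35% or more of the peak, and for 11 of them it lay in the same window. The peaks in Alms1 and in its pseudogene copies Alms1-ps1, whose peak is annotated to Nat8f3, and Alms1-ps2 were 97.1% to 98.3% identical over their whole length. A stretch of these 3 peaks is printed here, with capitals at bases that differ from Alms1-ps1 and, in Alms1-ps1, at bases that differ in either of the others. A read that lies wholly within the stretch differs between the copies only at these letters.

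Alms1, chr6:85702043-85702222, plus strand: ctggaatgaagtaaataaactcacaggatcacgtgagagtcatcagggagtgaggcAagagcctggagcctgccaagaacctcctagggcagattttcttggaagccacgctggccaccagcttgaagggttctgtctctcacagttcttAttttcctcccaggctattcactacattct
Alms1-ps1, chr6:85755934-85756113, plus strand: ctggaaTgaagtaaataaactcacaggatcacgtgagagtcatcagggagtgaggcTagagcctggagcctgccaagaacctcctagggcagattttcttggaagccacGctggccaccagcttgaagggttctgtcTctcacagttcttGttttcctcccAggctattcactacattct
Alms1-ps2, chr6:85803350-85803529, plus strand: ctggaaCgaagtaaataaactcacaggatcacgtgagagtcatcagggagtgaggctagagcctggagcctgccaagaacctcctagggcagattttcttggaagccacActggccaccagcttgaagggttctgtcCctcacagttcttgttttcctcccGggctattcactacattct

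A further pair of copies consisted of an unannotated peak over the RefSeq long non-coding RNA Gm38847 and the peak upstream of the GENCODE start of Nat8f4, which were 94.6% identical over the whole of the latter. They held the largest log2 changes of the window and of Nat8f4, so their sequences are shown with capitals at the bases that differ.

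Gm38847, chr6:85856183-85856372, plus strand: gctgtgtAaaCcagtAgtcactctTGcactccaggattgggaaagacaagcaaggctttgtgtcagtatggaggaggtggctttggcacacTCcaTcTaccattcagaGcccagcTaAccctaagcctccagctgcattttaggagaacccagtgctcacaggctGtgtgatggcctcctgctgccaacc
Nat8f4 upstream, chr6:85906909-85907098, plus strand: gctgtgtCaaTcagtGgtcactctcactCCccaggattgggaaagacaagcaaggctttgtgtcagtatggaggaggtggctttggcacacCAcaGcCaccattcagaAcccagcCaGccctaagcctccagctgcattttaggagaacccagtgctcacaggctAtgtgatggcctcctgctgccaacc

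The peaks at the 3′ ends of Nat8f2 and Nat8f4 formed another pair, 87.9% identical over 85.1% of the Nat8f2 peak. The stretch shown lies downstream of both gene ends, and capitals mark the bases that differ. They are all in the part printed first, and the remainder of the stretch is identical.

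Nat8f2 end, chr6:85865119-85865357, plus strand: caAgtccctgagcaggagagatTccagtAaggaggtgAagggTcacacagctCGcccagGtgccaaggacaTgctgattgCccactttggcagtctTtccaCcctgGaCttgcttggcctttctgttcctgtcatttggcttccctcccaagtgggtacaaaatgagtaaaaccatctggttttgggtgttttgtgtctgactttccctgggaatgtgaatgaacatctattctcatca
Nat8f4 end, chr6:85898746-85898985, plus strand: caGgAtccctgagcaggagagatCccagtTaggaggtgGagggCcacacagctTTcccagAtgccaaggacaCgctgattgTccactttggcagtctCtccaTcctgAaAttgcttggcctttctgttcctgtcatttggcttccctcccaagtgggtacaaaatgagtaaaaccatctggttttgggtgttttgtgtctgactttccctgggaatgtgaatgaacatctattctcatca

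The Nat8 peak that covers a RefSeq start site of the gene had copies at chr6:85713048-85713911 and chr6:85765588-85766450, 97.2% and 97.1% identical, and neither copy overlaps a peak of the table. The second copy covers the RefSeq start of Nat8f3. The authors removed reads that mapped to several places, so a missing peak does not show that a copy is closed. A stretch upstream of the start shows how few bases separate the site with a peak from the 2 without, with capitals at the bases that differ from Nat8.

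Nat8, chr6:85837146-85837305, plus strand: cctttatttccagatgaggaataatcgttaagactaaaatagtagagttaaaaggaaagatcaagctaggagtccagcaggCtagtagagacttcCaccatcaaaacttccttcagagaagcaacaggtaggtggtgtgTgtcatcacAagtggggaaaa
first copy, chr6:85713400-85713559, plus strand: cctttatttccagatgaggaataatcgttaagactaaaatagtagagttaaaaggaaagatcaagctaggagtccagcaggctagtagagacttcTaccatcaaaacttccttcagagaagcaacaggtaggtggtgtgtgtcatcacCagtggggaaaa
Nat8f3 copy, chr6:85765939-85766098, plus strand: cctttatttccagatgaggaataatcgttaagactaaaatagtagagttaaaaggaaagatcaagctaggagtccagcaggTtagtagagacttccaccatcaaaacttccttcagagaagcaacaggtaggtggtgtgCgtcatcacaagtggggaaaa

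In contrast, the smaller Nat8f2 peak had no such copy. It is shown as an example of a family peak with a sequence of its own, with capitals at the only AP-1 motif (TGANTCA) found in it.

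Nat8f2 smaller peak, chr6:85863861-85864160, plus strand: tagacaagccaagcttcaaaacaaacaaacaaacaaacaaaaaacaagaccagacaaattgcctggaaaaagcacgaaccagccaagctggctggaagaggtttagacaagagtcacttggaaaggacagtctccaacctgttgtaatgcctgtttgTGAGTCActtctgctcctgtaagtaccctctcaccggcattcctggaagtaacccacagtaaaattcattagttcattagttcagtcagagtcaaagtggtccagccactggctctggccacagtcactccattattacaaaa

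The share of 36-base words of a peak that occur once in the genome, on either strand, was computed as a measure of how much of it is not repeated elsewhere. These libraries were sequenced as pairs of 36-base reads, and a pair can be placed where only 1 of its reads is unique, so more of a peak can be read than this share. It was 26.7% for the Alms1 peak, 28.2% for the Nat8f3 peak in Alms1-ps1 and 17.9% for Ptges3-ps, whose copy lies on chromosome 4 (98.5% identical). It was 43.6% for the larger Nat8 peak, 67.6% for the Nat8f2 end, 66.2% for the Nat8f4 end and 78.0% for Gm38847. Only the second Nat8 peak, the smaller Nat8f2 peak and the lincRNA peak reached 100%. The median was 70.6% over the 16 window peaks and 100% over the 48 peaks of the flanking 500000 bases on each side, of which the lowest had 78.8%. Counted over the central 300 bases, 12 of 16 window peaks (75.0%) had fewer than 80% unique words, against 2.23% of all 75412 peaks. The authors removed reads that mapped to several places, so the normalized counts of these peaks come from reads that the aligner placed at 1 position.

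The 2 Nat8 peaks differed in level in control MuSCs. The peak from 85836794 to 85837658, 5144 bases from the annotated start site, had normalized counts of 136, 111 and 203 in control libraries 1, 2 and 3 and of 433, 307 and 374 in Taf4a sKO libraries 1, 2 and 3. The genotypes did not overlap, and the means were 150 ± 47.6 (SD, n = 3), at the 44.0 percentile of all control means, and 371.3 ± 63.0 (SD, n = 3), a ratio of 2.48. The second Nat8 peak, 85840040 to 85840487, 8182 bases from the start, had 14, 15 and 22 in controls and 142, 122 and 88 in Taf4a sKO libraries. The genotypes did not overlap, and the control mean of 17.0 ± 4.4 (SD, n = 3) stood at the 1.0 percentile. The Taf4a sKO mean of 117.3 ± 27.3 (SD, n = 3) was 6.9 times the control mean, at the 34.9 percentile.

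Nat8f2 showed both a large and a small peak. At the 3′ end of the gene, from 85864728 to 85865927, the normalized counts were 221, 180 and 234 in controls and 1431, 1162 and 1142 in Taf4a sKO MuSCs. The lowest Taf4a sKO library stood well above the highest control, and the means were 211.7 ± 28.2 and 1245 ± 161.4 (SD, n = 3 each), a ratio of 5.88. The neighbouring peak, 85863856 to 85864164, had 13, 30 and 51 in controls and 194, 215 and 210 in Taf4a sKO libraries, which are narrowly grouped while the controls spread over a wide range. Its ratio of means was 6.59, and each of its 36-base words occurs only here in the genome. No peak covered the start site of Nat8f2, whose annotated start lay 3830 bases from the centre of the large peak.

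The peak at the start of Nat8f1, which also holds the start of Tprkb, a gene for a subunit of the KEOPS complex that modifies transfer RNA, ran from 85915244 to 85916527. It had 1796, 1691 and 2009 normalized counts in controls and 2116, 1844 and 1877 in Taf4a sKO libraries. The ranges overlapped, the means were 1832 ± 162 and 1945.7 ± 148.4 (SD, n = 3 each), and the log2 change of 0.09 had a standard error of 0.10. The sign of this small difference depended on the scaling, with -0.03, -0.06 and -0.05 after median-of-ratios, total-signal and quantile scaling. The 2 genes share this peak and their signals cannot be told apart. It was the family peak with the highest level per length in controls, 1426.8 normalized counts per kb, against 37.9 for the second Nat8 peak and 300.2 for the Nat8f4 start.

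Nat8f4 had a peak at its GENCODE start, 1 upstream of that start, which lies within the gene as RefSeq draws it, and 1 at its end. The start peak, 85904690 to 85905253, had 169, 141 and 198 in controls and 240, 225 and 221 in Taf4a sKO MuSCs, a ratio of 1.35 without overlap between the genotypes. The upstream peak, 85906906 to 85907797, 2468 bases from the start, had 35, 35 and 52 in controls and 301, 197 and 266 in Taf4a sKO MuSCs, a ratio of 6.26. The peak at the gene end, 85898163 to 85899541, had 238, 176 and 358 against 1481, 1117 and 1213, a ratio of 4.94. The single Nat8f3 peak, 85755679 to 85756369, lay 9730 bases from the Nat8f3 start inside Alms1-ps1, and had 85, 68 and 107 in controls and 233, 263 and 165 in Taf4a sKO libraries, a ratio of 2.54.

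**Figure D1:**
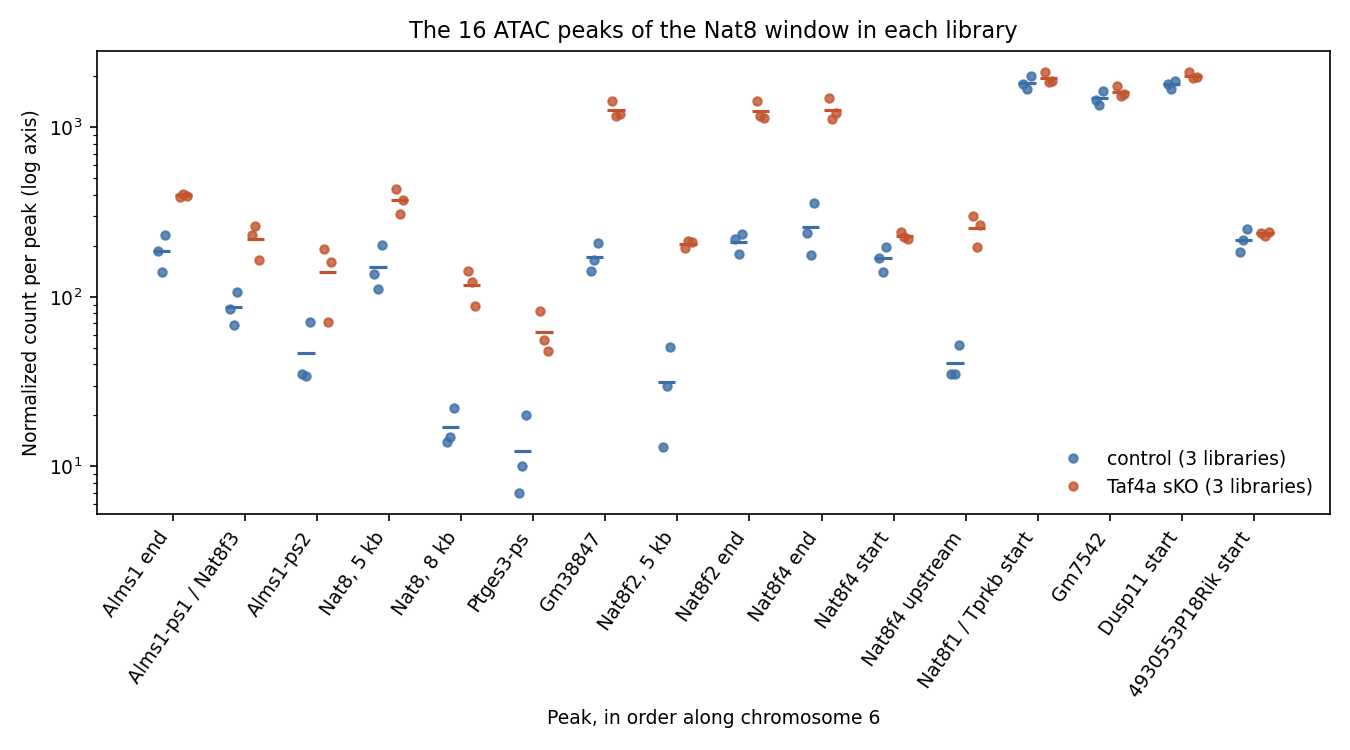
Normalized count of each of the 16 peaks (log axis) in the 3 control and 3 Taf4a sKO libraries, in order along chromosome 6, with points for libraries and short lines for group means. From the Alms1 end to the Nat8f4 upstream peak the Taf4a sKO points lie above the control points, except at Alms1-ps2 where 1 Taf4a sKO library equals the highest control at 71, whereas the points of the Nat8f1/Tprkb, Gm7542 and Dusp11 peaks lie close together between 1360 and 2126.

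Among the window peaks outside the family, the Gm38847 peak from 85856093 to 85857202 had the largest difference of all 16. Its normalized counts were 142, 165 and 209 in controls and 1431, 1161 and 1191 in Taf4a sKO libraries, a ratio of means of 7.33, and its log2 change of 2.88 (standard error 0.15) ranked at place 18 among the 75384 peaks with a mean above 10. The peak in Alms1, 85701579 to 85702554, had 186, 140 and 233 against 390, 407 and 396. In Alms1-ps2, 85803099 to 85803621, 35, 34 and 71 in controls stood against 192, 71 and 160, so that the highest control equalled the lowest Taf4a sKO library. Ptges3-ps, a processed pseudogene of the cochaperone gene Ptges3, had 7, 10 and 20 in controls and 83, 56 and 48 in Taf4a sKO libraries over the peak from 85844256 to 85844519, of which little is unique.

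Beyond Nat8f1 the values differed little. Gm7542, a processed pseudogene whose peak from 85936658 to 85937608 lies 1306 bases from it, had 1442, 1360 and 1637 against 1755, 1522 and 1566. Dusp11, which encodes a phosphatase acting on the 5′ end of RNA, had 1810, 1689 and 1872 against 2126, 1951 and 1982 at its start, from 85960983 to 85962314. There the genotypes did not overlap, but the difference did not pass the threshold. The lincRNA 4930553P18Rik, the last gene with a peak in the window (86004192 to 86004842), had 185, 216 and 251 against 237, 230 and 243. The log2 changes of these 3 peaks were 0.13, 0.17 and 0.13, close to the median of 0.11 over all peaks, and those of Gm7542 and 4930553P18Rik turned to values between -0.03 and -0.01 after total-signal or quantile scaling.

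Read against all peaks, 12 of the 16 window peaks passed the limma threshold in the higher direction (adjusted p under 0.05) and none in the lower, also at an unadjusted p under 0.05, where the count was 0. All 16 log2 changes were above 0 on the deposited scale, and 15, 13 and 13 were after median-of-ratios, total-signal and quantile scaling. In the same fit 28.0% of the 75384 tested peaks were higher and 13.9% lower, or 21102 and 10476 peaks. These counts were 19090 (25.3%) and 16943 (22.5%) after median-of-ratios scaling, 17664 (23.4%) and 19464 (25.8%) after total-signal scaling and 18697 (24.8%) and 18894 (25.1%) after quantile scaling. With a log2 ratio of group means above 1 called gained and below -1 called lost, 11 window peaks were gained and none lost, against 7.02% and 5.36% of all peaks. After median-of-ratios, total-signal and quantile scaling 12, 11 and 11 window peaks were higher and 10 were gained each time. The Nat8f4 start lost its call after total-signal and quantile scaling, and the Alms1 peak was no longer gained under any of the other scalings. In 12 window peaks each Taf4a sKO value exceeded each control value and in none the reverse held, against 32.3% and 18.0%. These are not the same peaks as those called higher, since Dusp11 was separate without a call and Alms1-ps2 was called with overlap. Since the window was chosen for these values, the shares describe it and carry no further weight. The median log2 change was 1.44 in the window and 2.35 over the 9 family peaks. The other scalings lowered the median of all peaks by 0.11 to 0.15 on the log2 scale and the family median to between 2.17 and 2.24.

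The summed normalized counts of the 16 peaks were 6514, 6061 and 7527 in controls and 12785, 10850 and 11142 in Taf4a sKO libraries. The 4 peaks that hold a GENCODE start site, those of Nat8f4, Nat8f1/Tprkb, Dusp11 and 4930553P18Rik, contributed 3960, 3737 and 4330 in controls and 4719, 4250 and 4323 in Taf4a sKO libraries. As a share of all normalized counts these start site peaks took 0.0105%, 0.0106% and 0.0101% in controls and 0.0106%, 0.0102% and 0.0103% in Taf4a sKO libraries, so that the shares overlapped. The other 12 peaks took 0.0068%, 0.0066% and 0.0075% against 0.0182%, 0.0158% and 0.0163%. Most of the added signal of the window thus lay outside the peaks that hold a GENCODE start site. The larger Nat8 peak, which covers a RefSeq start, is counted among these 12. In bulk libraries a larger fraction of cells with an open site and a more open site in each cell cannot be told apart.

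**Figure D2:**
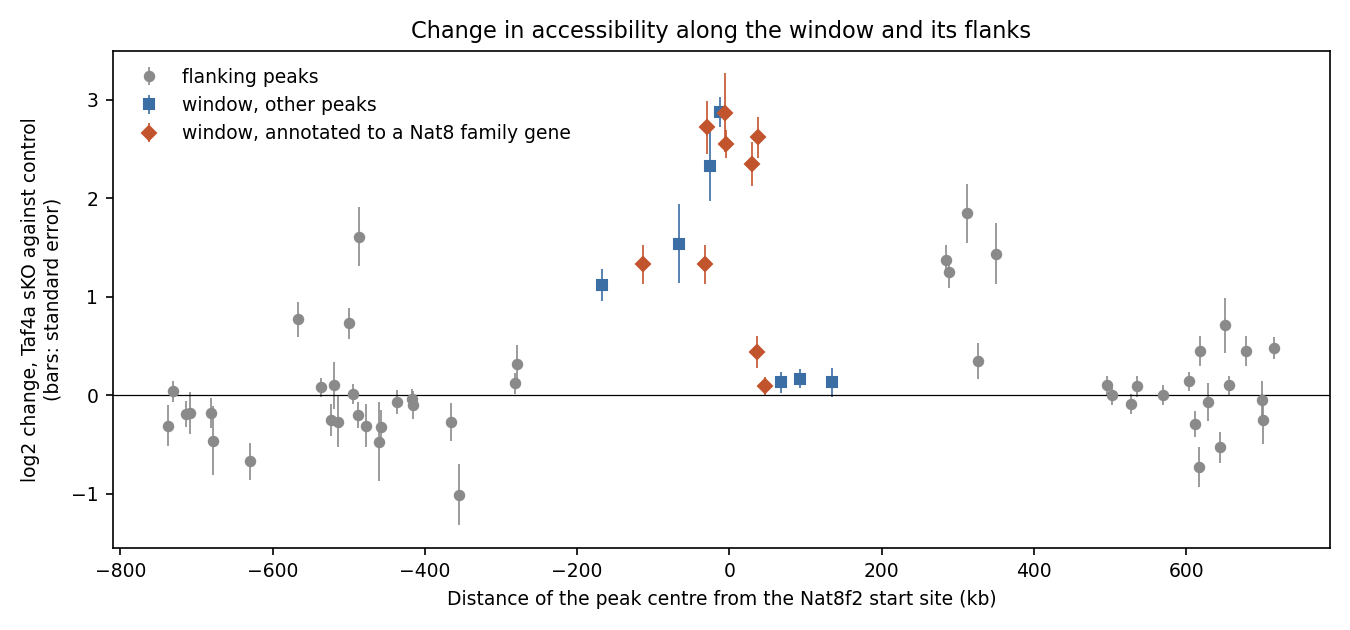
Limma log2 change (Taf4a sKO against control, bars show the standard error) of 64 peaks by the distance of the peak centre from the Nat8f2 start site in kb; diamonds are Nat8 family peaks, squares other window peaks and circles flanking peaks. The window peaks from -167.1 to 38.2 kb lie at 1.12 to 2.88, except the Nat8f4 start at 0.44, and those from 46.7 to 135.4 kb lie at 0.09 to 0.17.

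Between the peaks nearest to an edge of the window, the larger difference lay inside at the first edge but outside at the second. The first peak inside the window, in Alms1, started at 85701579 and had a log2 change of 1.12. The nearest peak outside, in an Alms1 intron at 85590255 to 85590427, had 83, 69 and 105 normalized counts in controls and 103, 103 and 110 in Taf4a sKO libraries. Its log2 change of 0.32 did not pass the threshold. At the second edge the order was turned around. The last peak inside was the lincRNA start with 0.13. The first outside, at 86153384 to 86154274 near the unprocessed pseudogene Gm19596, had 136, 179 and 127 in controls and 344, 362 and 430 in Taf4a sKO libraries. The next peak, 86157301 to 86157782, had 88, 88 and 86 against 203, 197 and 230.

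Over the 500000 bases before the window, 3 of 26 peaks were higher and 2 lower (in the limma fit over all peaks, where 28.0% were higher and 13.9% lower), with a median log2 change of -0.18. After median-of-ratios, total-signal and quantile scaling the lower peaks numbered 7, 9 and 9, with 3 higher each time, while 22.5%, 25.8% and 25.1% of all peaks were lower under these scalings. Over left-out libraries the higher peaks before the window ranged from 3 to 5, most without control replicate 3. The start of Alms1 itself, 85587049 to 85588174, had 1300, 1147 and 1405 in controls and 1377, 1420 and 1386 in Taf4a sKO libraries. Of the genes further upstream, named here after their values were seen, 2 of the 4 Rab11fip5 peaks rose, with log2 changes of 0.73 and 1.61, while the peak at its start (0.01) and the other one (-0.20) did not pass the threshold. The Egr4 start, a zinc finger transcription factor gene, fell by 1.01, from 35.7 ± 0.6 to 17.3 ± 2.1 (SD, n = 3 each). The starts of Sfxn5, Smyd5 and Cct7, the last a subunit of the chaperonin that folds actin and tubulin, did not pass the threshold. In the 500000 bases after the window, 8 of 22 peaks were higher and 2 lower, against the same 28.0% and 13.9%, with a median of 0.10, and the 4 gained peaks all lay in its first part, before the start of Fam136a. The counts were 7 and 4, 7 and 6, and 6 and 6 under the 3 other scalings, in which the shares over all peaks moved likewise. Over left-out libraries the higher peaks after the window ranged from 5 to 10, fewest without control replicate 2. At a minimum mean of 50, 5 of these peaks were higher. The peak at the start of Tgfa, a ligand of the EGF receptor, had 97, 90 and 111 against 117, 130 and 133, with a log2 change that did not pass the threshold (0.35, adjusted p = 0.11).

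The log2 changes of peaks that are copies of each other can be set side by side. Gm38847 and the Nat8f4 upstream peak had log2 changes of 2.88 and 2.62, the ends of Nat8f2 and Nat8f4 2.55 and 2.35, the Alms1 group 1.12, 1.33 and 1.54, and the Nat8f1/Gm7542 pair, aligned over 50.2% of the Gm7542 peak at 98.3% identity, 0.09 and 0.13. The level of the copies was not alike in every pair. Gm38847 had 4.02 to 4.71 times the normalized counts of the Nat8f4 upstream peak in controls and 4.48 to 5.89 times in Taf4a sKO libraries, whereas the Nat8f1 peak stood at 1.23 to 1.25 and 1.20 to 1.21 times the Gm7542 peak. The Nat8f2 end stood at 0.65 to 1.02 and 0.94 to 1.04 times the Nat8f4 end. In the Alms1 group the ratios varied between libraries. Alms1 stood at 2.06 to 2.19 and 1.55 to 2.4 times Alms1-ps1, and at 3.28 to 5.31 and 2.03 to 5.73 times Alms1-ps2. Alms1-ps1 stood at 1.51 to 2.43 and 1.03 to 3.7 times Alms1-ps2. The part of read placement between copies in these values was not tested. The 2 changed peaks with fully unique sequence, the second Nat8 peak and the smaller Nat8f2 peak, had ratios of 6.9 and 6.59. The other gained peaks had ratios of 2.13 to 7.33. Control means of these 2 peaks were 17.0 and 31.3, at the 1.0 and 5.1 percentiles, so their ratios rest on few control reads.

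**Figure D3:**
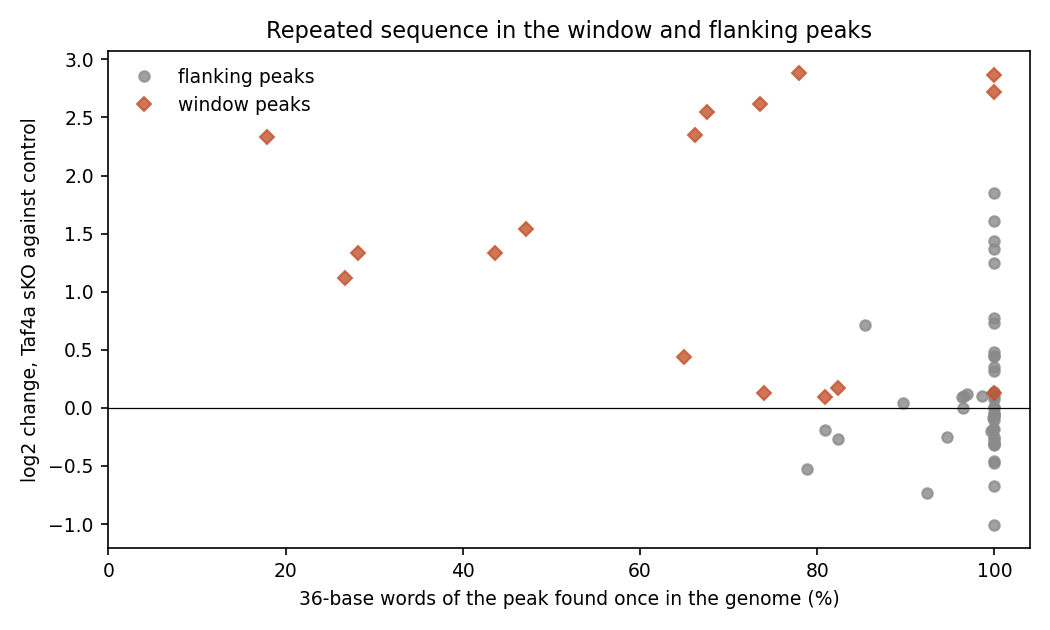
Log2 change (Taf4a sKO against control) against the percentage of 36-base words of a peak that occur once in the genome, for the 16 window peaks (diamonds) and 48 flanking peaks (circles). Window peaks spread from 17.9% to 100%. Of the 3 window peaks at 100%, 2 have log2 changes above 2.7 from low control counts, and the third, at the lincRNA, has 0.13.

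Short motifs were counted in the central 300 bases of each peak on both strands, as letters only. The E-box CAGCTG occurred in 4 of 16 window peaks (29.1% of all peaks), the AP-1 motif TGANTCA in 2 (22.0%), CCAAT, the box read by NF-Y, in 5 (32.2%) and GGGCGG, read by SP1, in 4 (20%). TATAAA was not found (9.8% of all peaks). None of these letter strings contains another. Over the 10 RefSeq promoter windows of Nat8 family genes, from 250 bases before to 50 after a start, CCAAT occurred in 6 (37.4% of 32851 promoters), TATAAA in 3 (13.6%), GGGCGG in 1 (35.7%), and CAGCTG and TGANTCA in 0 (16.3% and 7.8%). Only 3 of these 10 windows overlapped a peak, those of Nat8f1, Nat8f4 and the longer Nat8 transcript, and none of these 3 held CCAAT or TATAAA, whereas that of Nat8f1 was the one with GGGCGG. The promoters of Nat8f6 and Nat8f7 were 97.9% identical over 292 bases and neither overlapped a peak, and 33.6% and 13.6% of their words were unique. Both held CCAAT and TATAAA, and Nat8 and Nat8f4 each entered with more than 1 window, so the 10 windows are not independent. The promoter of Nat8f5 was fully unique and had no peak.

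The enzymes that act before NAT8 were read from a list of genes for glutathione synthesis, glutathione transfer and the trimming of glutathione conjugates. The list also held Acy1 and Acy3, whose enzymes act after NAT8. Of its 27 genes 23 had a peak, and of their 41 tested peaks 17 were higher and 2 lower, with a median log2 change of 0.19 against 0.11 over all peaks. The counts were 17 and 5, 16 and 7, and 17 and 7 after median-of-ratios, total-signal and quantile scaling. Over all peaks 28.0% were higher and 13.9% lower on the deposited scale, and 25.3% and 22.5%, 23.4% and 25.8%, and 24.8% and 25.1% under these scalings. Of the 17 higher peaks on the deposited scale, 8 were the nearest to the start of their gene. The values given below for single genes of this list are those of the nearest peak only. Among the trimming enzymes, the Ggt6 peak at the start, of the gamma-glutamyltransferase family, had 64, 74 and 86 in controls and 201, 212 and 201 in Taf4a sKO libraries. The genotypes did not overlap, and the log2 change was 1.45 (standard error 0.17, adjusted p = 6.8e-07). Dpep1, a membrane dipeptidase best known from kidney, had 139, 155 and 132 against 329, 267 and 342, a log2 change of 1.13 (adjusted p = 3.8e-06). Ggt5 and Anpep, which encodes aminopeptidase N, rose by 0.89 and 1.07 on the log2 scale, and the leucine aminopeptidase gene Lap3 had 0.12 without passing the threshold.

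Among the transferases, the Gstm2 peak near the start rose from 283.7 ± 39.6 to 767 ± 47.0 (SD, n = 3 each, log2 change 1.44), Mgst1 by 0.92, Mgst2 by 0.65 and Gstm4 by 0.54. The nearest peaks of the other 9 transferases, Gstm1, Gstm5, Gsta3, Gsta4, Gstp1, Gstt1, Gstt2, Gstk1 and Mgst3, did not pass the threshold and had log2 changes from -0.44 to 0.23. At the peaks nearest their starts, the genes of the enzymes that make glutathione, Gclc, Gclm and Gss, had log2 changes of -0.01, 0.16 and 0.19. None of these peaks passed the threshold. No peak was annotated to Ggt1, Ggt7, Dpep2 or Dpep3. The nearest peaks of Acy1 and Acy3, aminoacylases that remove the acetyl group again, had log2 changes of 0.07 and 0.15 without passing the threshold.

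Other N-acetyltransferases and the supply of acetyl-CoA formed a second list. Of 26 genes 22 had a peak, and of 30 tested peaks 4 were higher and 1 lower, beside 28.0% and 13.9% of all peaks, with a median log2 change of 0.06. After median-of-ratios, total-signal and quantile scaling the counts were 5 and 6, 4 and 9, and 5 and 10, while the lower share of all peaks was 22.5%, 25.8% and 25.1%. Over left-out libraries the higher peaks of the list ranged from 3 to 8, most without control replicate 3. The lower peaks ranged from 1 to 3, most without control replicate 2. At a minimum mean of 50, 2 peaks of the list were higher. Nat8l, which encodes the brain enzyme that makes N-acetylaspartate and lies elsewhere in the genome, had 386, 408 and 436 in controls and 294, 251 and 295 in Taf4a sKO libraries and fell by 0.55 (adjusted p = 0.0022). Its direction was thus opposite to that of the Nat8 peaks. Gnpnat1, an acetyltransferase of the hexosamine pathway, had a small peak that rose from 14.0 ± 1.0 to 47.3 ± 2.5 (SD, n = 3 each). Acly, Acss2 and Slc33a1, which make acetyl-CoA or bring it into the endoplasmic reticulum, did not pass the threshold at their starts, with log2 changes of -0.18, 0.24 and 0.17.

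**Figure D4:**
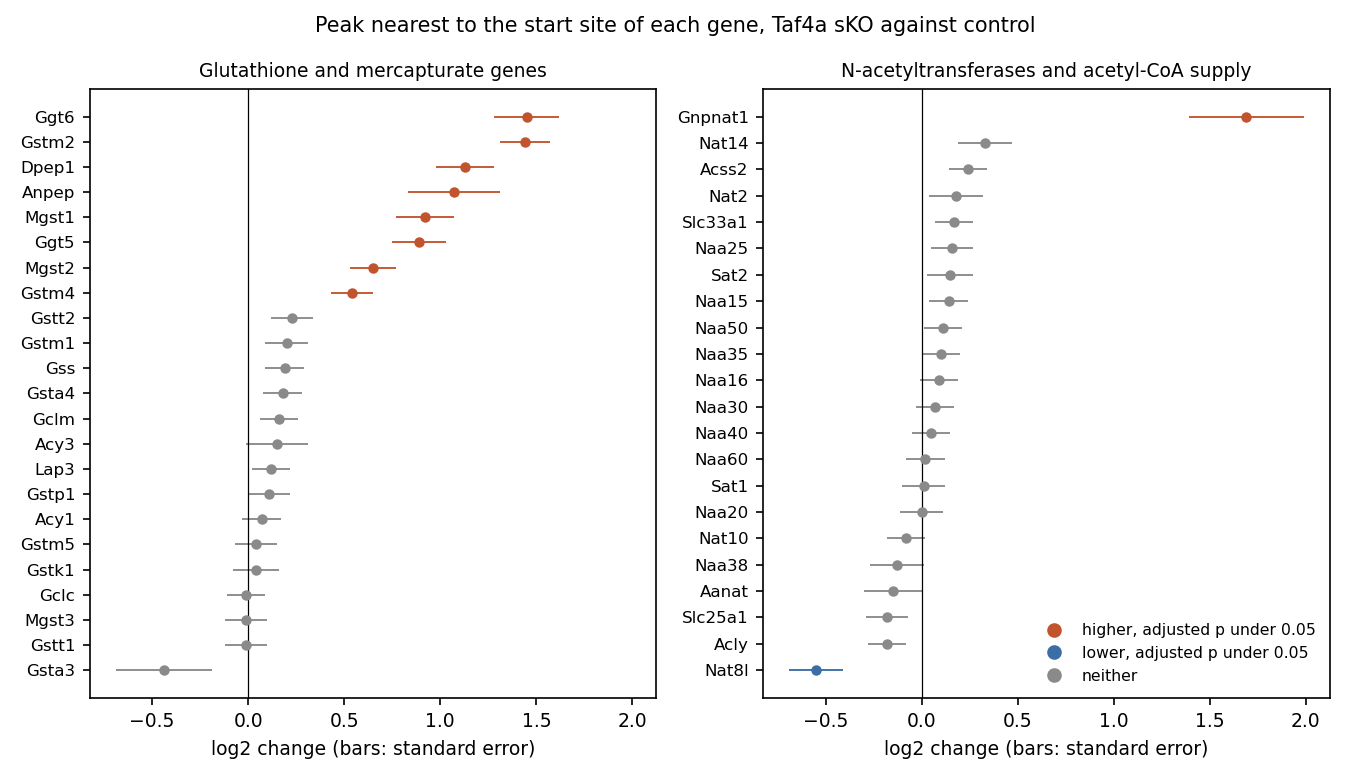
Limma log2 change (Taf4a sKO against control, bars show the standard error) at the peak nearest to the start of each gene, for the glutathione and mercapturate list (left, 23 genes) and for N-acetyltransferases and acetyl-CoA supply (right, 22 genes). In the left panel 8 genes from Gstm4 (0.54) to Ggt6 (1.45) passed the threshold, and in the right panel Gnpnat1 passed it above 0 and Nat8l below it. Of all peaks 28.0% were higher and 13.9% lower.

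Genes of kidney and liver, where NAT8 is best known, were read as a further group. Of 10 genes 7 had a peak, and of 10 tested peaks 1 was higher and 0 lower (limma, with 3 lower at an unadjusted p under 0.05, and 3, 3 and 2 lower under the other scalings), beside 28.0% and 13.9% of all peaks, with a median log2 change of -0.26. The peak called higher was 1 of 3 at Lrp2, which encodes the endocytic receptor megalin, and lay 2110 bases from its start, with 125, 147 and 150 in controls and 179, 201 and 266 in Taf4a sKO libraries (log2 change 0.60, adjusted p = 0.0066). Without Taf4a sKO replicate 3 the list held 0 higher peaks, so this call rests on that library. At the peaks nearest the starts the log2 changes were 0.30 for Lrp2, 0.04 for Slc34a1, -0.32 for Apoa1, -0.38 for Cubn and -0.51 for Alb, and none of these passed the threshold. No peak was annotated to Hnf4a, Slc22a6 or Umod.

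The labelled cell type was checked at its markers. All 8 MuSC markers had peaks, led by the Pax7 start with 4533, 3128 and 3729 normalized counts in controls and 3084, 2923 and 3026 in Taf4a sKO libraries, lower by a log2 change of -0.32 (adjusted p = 0.03). The starts of Vcam1 and Chrna1 were higher (0.35 and 0.36, adjusted p = 0.018 and 0.0095), and those of Myf5, Itga7, Cdh15, Sdc4 and Calcr did not pass the threshold. Over all tested peaks of the markers, 13 of 31 were higher and 3 lower for MuSCs, 2 of 6 and 1 for endothelial cells, 4 of 10 and 1 for fibro-adipogenic progenitors and 0 of 7 and 2 for muscle fibres, beside 28.0% and 13.9% of all peaks. For the MuSC markers alone, the summed counts of the peaks nearest each start were 13343, 11076 and 13390 against 12723, 11914 and 12125 and overlapped. Of the leukocyte markers Ptprc, Cd68, Cd3e and Itgam, Cd68 alone had a peak, with 201, 208 and 307 against 129, 133 and 129 (log2 change -0.84, adjusted p = 0.00037). For endothelial cells the sums over the 4 markers Pecam1, Cdh5, Kdr and Tek were 1514, 1312 and 1845 in controls and 1993, 1992 and 1888 in Taf4a sKO libraries, carried mostly by Tek, whose start rose by 0.40 (adjusted p = 0.01), while Pecam1, Cdh5 and Kdr did not pass the threshold. For fibro-adipogenic progenitors 3 of 4 markers had a peak and the sums were 167, 169 and 183 against 225, 221 and 209, with Dcn the most abundant (94.7 and 169.7 on average) and no peak at Ly6a. Dcn was higher (0.84, adjusted p = 0.00032), Pdgfra lower (-0.68, adjusted p = 0.044), and Pi16 had -0.67 without passing the threshold. For muscle fibres all 4 markers had a peak, led by Tnnt3, and the sums were 1341, 1292 and 1457 against 1377, 1169 and 1158. Acta1 was lower (-0.67, adjusted p = 0.00085), and Ckm, Myh4 and Tnnt3 did not pass the threshold. Of 3 erythroid markers Klf1 alone had a peak, with 1095, 1081 and 1171 against 1060, 1121 and 1009. The study reanalyzed its sorted cells and reported a purity that was not complete. The part of other cell types in the values of the Nat8 window was not tested.

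The deletion itself was not visible in these peaks. Taf4, as the table calls Taf4a, had 2 peaks, at its start on chromosome 2 (179975752 to 179977530), with 2305, 1998 and 2375 in controls and 2095, 2124 and 2104 in Taf4a sKO libraries, and 3331 bases upstream of it, with 488, 437 and 653 against 831, 695 and 759. In the limma fit the upstream peak was higher (log2 change 0.55, adjusted p = 0.003), and the start peak did not pass the threshold (-0.07). Neither peak covers exons 11 and 12, so the table gives no check of the genotype labels.

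Peaks elsewhere with a profile like that of the Nat8 family were picked by Pearson's r between their log2 values and the mean log2 profile of the 9 family peaks over the 6 libraries. The closest 5 annotated peaks were at Pank4 (r = 0.9997), 4930459C07Rik (0.9996), Gm38320 (0.9994), Gm18024 (0.9991) and 4930551L18Rik (0.999). Pank4, related to the pantothenate kinases of coenzyme A synthesis, had 999, 992 and 1134 normalized counts in controls and 1592, 1502 and 1513 in Taf4a sKO libraries at its start. An r above 0.98 was reached by 3354 peaks outside the window, 4.45% of those tested.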

How the data were processed

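ATAC-seq reads were trimmed with Trimmomatic 0.39, aligned to mm10 with STAR 2.7.11b and filtered with Picard 3.1.1 by the authors, who discarded duplicates and reads with more than 1 mapping position. Peaks were called in each sample, merged into a common set and annotated by the authors to the nearest gene within 10000 bases. A shift of reads for Tn5 is not given in the sources used here. The deposited values are a score in the sense that the authors scaled read counts per peak by a depth factor and rounded them. The gaps between low values fitted steps of 1.002 to 1.389 per read.

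Values were compared with limma 3.58.1 in R 4.3.3 (mean-variance trend, robust moderation) on log2(value + 1) over peaks with a mean above 10, with Benjamini-Hochberg adjustment over all 75384 of them. The step was tested on simulated data. The study describes the libraries as biological replicates without saying how many animals each came from, so p-values measure the spread between these libraries. The share of unrepeated sequence was computed with words of 36 bases, the length of the paired-end reads. Copies were searched with BLAST+ 2.17.0 in GRCm38. A peak with over 20 hits, Dusp11, was taken as holding a dispersed repeat and given no copies. Start sites came from GENCODE vM21 and promoters and sequences from RefSeq and GRCm38.

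Peaks annotated to Nat8 family genes, the peak nearest the start of each other gene in the window, the 3 peaks without a gene and the peaks next to both edges were named. The members and lists were chosen with earlier results of these data known. Some genes of the fixed lists and 1 motif are not reported here. Pseudocount, minimum mean, scaling, threshold, moderation, replicate block and left-out libraries were varied.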

Additional observations from a re-analysis of the deposited data

How the results depend on the processing

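The 12 window peaks called higher kept their calls under pseudocounts of 0.5 and 5, without a minimum mean, with median-of-ratios scaling, with the replicate block and without robust moderation. The Nat8f4 start peak lost its call after total-signal and quantile scaling and without control replicate 2 or any 1 of the Taf4a sKO replicates, and Ptges3-ps was not tested at a minimum mean of 50. Without control replicate 3 Gm7542 and Dusp11 were called as well, so the count ranged from 11 to 14 over left-out libraries. The Alms1 peak was no longer gained under the 3 other scalings or without control replicate 2 (10 to 11 gained). The median log2 change of the window ranged from 1.27 to 1.73 over left-out libraries, highest without control replicate 3. The Nat8f1 change was -0.03, -0.06 and -0.05 after median-of-ratios, total-signal and quantile scaling, and the median of all peaks -0.007, -0.042 and -0.024.

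Over all peaks, lower calls numbered 16943, 19464 and 18894 under these scalings. A log2 threshold of 1.5 left 1103 gained and 1710 lost peaks, a 1.5-fold threshold gave 14636 and 8652, and a minimum mean of 50 gave 2441 lost. Lower calls under the 3 scalings were 7, 9 and 9 before the window (1 at a minimum mean of 50), 4, 6 and 6 after it, 5, 7 and 7 in the mercapturate list, 6, 9 and 10 in the acetyltransferase list and 3, 3 and 2 in the kidney and liver list. At a minimum mean of 50, 5 peaks were higher after the window and 2 in the acetyltransferase list. Over left-out libraries, higher calls ranged from 3 to 5 before the window (5 without control replicate 3), from 5 to 10 after it (5 without control replicate 2), from 3 to 8 in the acetyltransferase list (8 without control replicate 3) and from 0 to 2 in the kidney and liver list (0 without Taf4a sKO replicate 3, 2 without Taf4a sKO replicate 1). Lower calls ranged from 0 to 3 in the mercapturate list (0 without Taf4a sKO replicate 2), from 1 to 3 in the acetyltransferase list (3 without control replicate 2) and from 0 to 2 in the kidney and liver list (2 without control replicate 3). The causes were not tested.

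Same-numbered libraries deviated from their group means with correlations of 0.11, -0.118 and -0.029, so the numbers were not taken as pairs. The replicate block gave 21944 higher and 11004 lower peaks, 12 and 0 in the window. Low values limit the smallest peaks, where control values of 7 to 22 at Ptges3-ps and the second Nat8 peak stand for few reads, and repeated sequence limits most of the window.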
